A study of Mus musculus with 9 samples.

Results

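Tsc2 and Pkd1 are neighbours on mouse chromosome 17 whose 3′ ends face each other and overlap. These 2 genes were followed through the sham, injury and CRC groups, out of 55228 features listed for each library, of which 16905 had any count. Tsc2 was selected on its lower count after injury than after sham operation in these same libraries, and Pkd1 because it lies tail to tail with it. The difference between injury and sham is therefore described without a test. Both genes were among the 3722 features that held enough counts to be tested.

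Tsc2 encodes tuberin, which forms the TSC complex with hamartin (Tsc1) and Tbc1d7. The complex switches off the small GTPase Rheb and so restrains mTORC1, the kinase complex that drives protein synthesis and cell growth. Growth factor signals through Akt relieve this brake, and loss of Tsc2 leads to smooth muscle tumours of the uterus in the Eker rat. Pkd1 encodes polycystin-1, a large membrane protein that works with polycystin-2 (Pkd2) at the primary cilium, and its mutation causes polycystic kidney disease. Deletions that remove both genes are known in patients with tuberous sclerosis and early cystic kidneys.

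RNA from the uteri of wild-type C57BL female mice, 8 weeks old, was sequenced on day 7 after surgery, with 3 mice and 3 libraries per group. Sham mice had the sham operation alone. The injury group had the endometrium damaged by 10 passes of a 27 gauge needle and was given 50 μL of PBS. The CRC group was injured in the same way and then received 1000000 CRCs in 50 μL. CRCs are conditionally reprogrammed mouse endometrial epithelial cells, grown on irradiated 3T3 feeder cells. RNA of the transplanted cells and of the host cannot be told apart in these libraries, and the same is true of fewer cells of a type and less RNA per cell.

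Depth was low. The libraries held between 280886 and 327883 counts on features, from 0.776% to 0.898% of their records, so that before scaling 1 count was worth 3.05 to 3.56 counts per 1000000 (CPM). The sham libraries differed most among themselves. Replicate 1 of sham held 2571 records that the counting left as ambiguous between features, and replicates 2 and 3 held 28622 and 24851, where the other 6 libraries held 1751 to 6470. Results that change without sham replicate 1 are given both ways.

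Tsc2 (ENSMUSG00000002496.10) lies on the minus strand from 24595816 to 24632630 of GRCm38, and Pkd1 (ENSMUSG00000032855.6) on the plus strand from 24549834 to 24596508. Their exons share the 693 bases from 24595816 to 24596508, all of them in the 3′ untranslated region of both genes. The shared stretch is 7.20% of the 9620 exonic bases of Tsc2 and 3.98% of the 17415 exonic bases of Pkd1. The stop codon of Pkd1, in exon 46 of transcript Pkd1-201, lies 276 bases before the stretch, and that of Tsc2 lies 96 bases beyond its other end. The annotated 3′ ends of Tsc2 differ between transcripts. The last exon of Tsc2-203 crosses the whole stretch, that of Tsc2-201 starts at 24595937 and that of Tsc2-205 at 24596470. The last 30 coding bases of each gene, which mark where the 2 untranslated regions begin, are shown 5′ to 3′ on the coding strand with the stop codon in capitals.
Pkd1-201, chr17:24595510-24595539, plus strand: aataacaaggtccaccccagcagcactTAG
Tsc2-201, chr17:24596605-24596634, minus strand: tccgtggatgacttcacagagtttgtgTGA

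**Figure D1:**
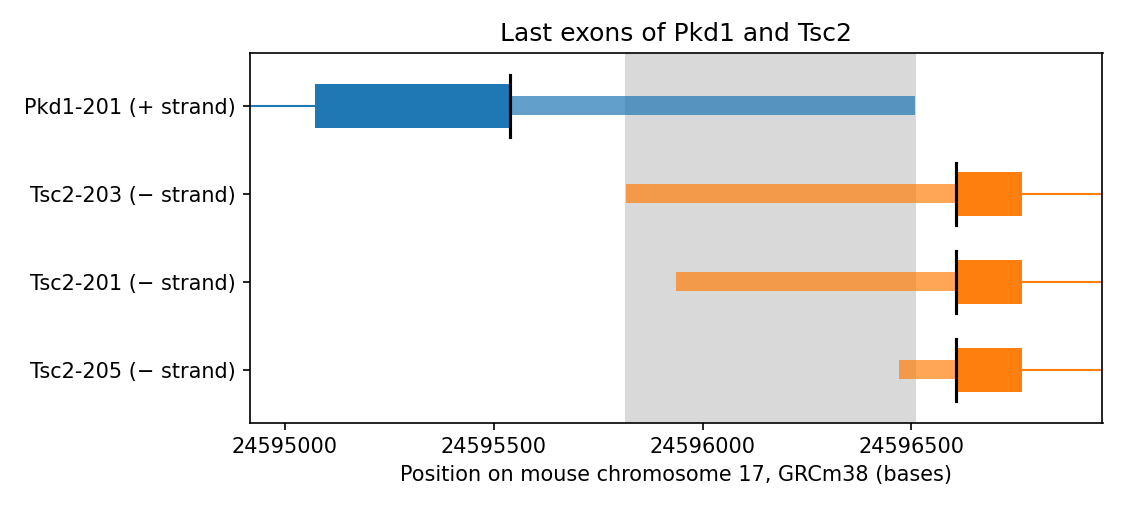
Last exons of Pkd1-201 (blue) and of 3 Tsc2 transcripts (orange) by position on chromosome 17 of GRCm38 in bases, with coding sequence as thick bars, 3′ untranslated sequence as thin bars, introns as lines and stop codons as black ticks. The grey band is the 693 bases that the exons of the 2 genes share.

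Whether the counting used the strand of a read is not given in the sources used here. Reads that come from the shared stretch on either strand, and more widely reads of a gene and of its opposite neighbour, cannot be told apart, so each value below is the count on the feature that bears the name. Xist held 77 counts over the 9 libraries and Tsix, transcribed across it from the other strand, held 44560. Of 5242 protein-coding genes with an exon across an exon of the other strand, 26.5% held enough counts to be tested. Of 16493 without one, 5.34% did. Ambiguous records were rare, with a share from 0.00493% in CRC replicate 2 up to 0.0773% in sham replicate 2. Whether these values come from counting on the strand opposite to the transcripts was not tested.

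Tsc2 was among the features with most counts. It held 1248 over the 9 libraries, and only 337 of the 55228 features, itself included, held as many. Among protein-coding genes, 3.45% of those with an opposite exon held at least as many counts as Tsc2, and 0.0970% of those without one. Pkd1 held 97 counts. The annotation has 822 pairs of protein-coding genes that overlap tail to tail in their exons, with a median overlap of 346 bases. With Tsc2 and Pkd1 included, 250 pairs shared at least 693 bases and 162 pairs held at least the 1345 counts that these 2 genes held together. The median combined count was 79.5 in pairs that share under 100 bases, 182 from 100 to under 500, 570 from 500 to under 1000, and 1700 at 1000 or more.

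The sham libraries had 167, 174 and 178 counts on Tsc2, or 542, 644 and 636 CPM after TMM scaling. After injury the counts were 93, 114 and 91, or 323, 401 and 319 CPM. After CRC transplantation they were 146, 142 and 143, or 445, 436 and 436 CPM. All 3 sham libraries lay above all 3 CRC libraries, and these above all 3 injury libraries. The same lack of overlap between all 3 groups, in any order, was found in 159 of 3722 features tested (4.27%). The means were 607 ± 57.1 CPM in sham, 439 ± 4.86 in CRC and 348 ± 46.1 in injury (SD, n = 3 each). The coefficient of variation was 9.39% in sham, 13.3% in injury and 1.11% in CRC, so the CRC libraries lay closer together than the counting error of single libraries, whose exact Poisson 95% interval ran from 123 to 172 counts for the 146 of CRC replicate 1. These intervals cover counting error only.

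Pkd1 was at the edge of what so few counts on features can measure. Its counts were 9, 5 and 7 after sham operation, then 9, 10 and 15 after injury, then 11, 22 and 9 after transplantation. Scaled, these came to 29.2, 18.5 and 25 CPM for sham, 31.2, 35.2 and 52.6 CPM for injury, and 33.5, 67.6 and 27.5 CPM for CRC. All 3 injury libraries lay above the sham libraries, while the CRC libraries overlapped both other groups and replicate 2 stood highest of all 9. The means were 24.2 ± 5.39 CPM in sham, 39.7 ± 11.4 in injury and 42.9 ± 21.6 in CRC (SD, n = 3 each). The order of the means was thus sham, injury, CRC, but the step from injury to CRC was smaller than the SD of either group. The Poisson 95% intervals of 5 counts in sham replicate 2 (1.62 to 11.7) and 15 counts in injury replicate 3 (8.40 to 24.7) overlapped, while that of 22 counts in CRC replicate 2 (13.8 to 33.3) lay above that of sham replicate 2.

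**Figure D2:**
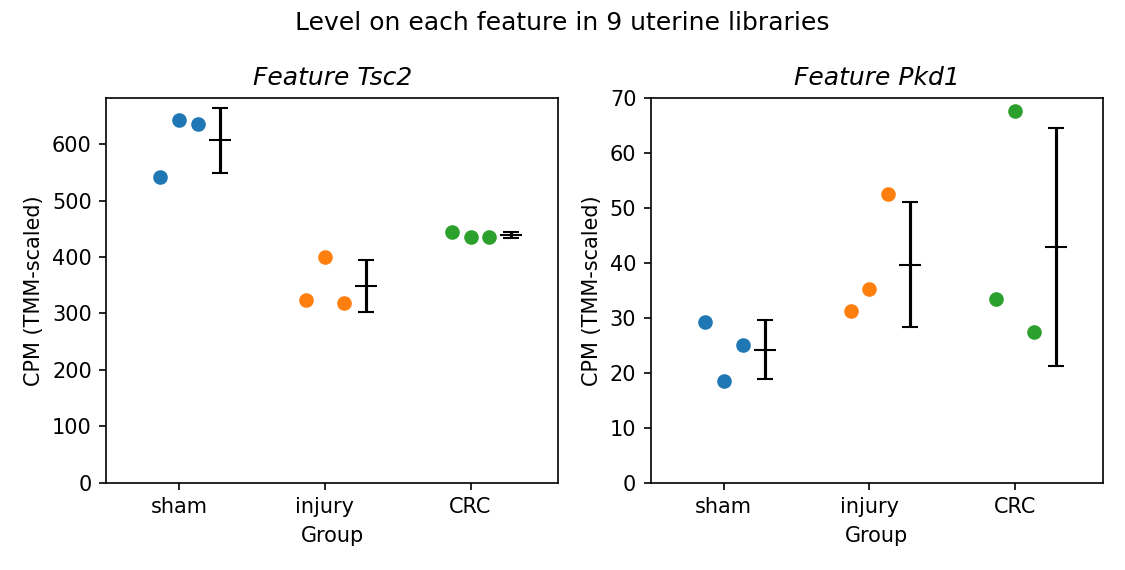
CPM after TMM scaling (vertical axes, from 0, with a separate scale for each gene) on the features Tsc2 (left) and Pkd1 (right) in the sham, injury and CRC groups, with 1 point per library and the mean ± SD (n = 3) beside it in black. Tsc2 runs from 319 CPM in injury to 644 in sham with 3 groups that do not overlap, and Pkd1 from 18.5 to 67.6 CPM with CRC across both other groups.

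Per kilobase of exon, Tsc2 stood at 63.1 ± 5.93 CPM in sham, 36.1 ± 4.80 in injury and 45.6 ± 0.505 in CRC, and Pkd1 at 1.39 ± 0.309, 2.28 ± 0.654 and 2.46 ± 1.24 (SD, n = 3 each). These values hold only if the reads of each feature came from the gene whose name it bears. They may instead have come from annotated exons of the gene across from the feature, with no transcript past the annotated ends. Those on Tsc2 would then come from the 693 shared bases of Pkd1 exons, and the reverse. The order over that stretch would then be turned. Pkd1 transcripts would stand at 607 CPM in sham, 348 in injury and 439 in CRC, and Tsc2 transcripts at 24.2, 39.7 and 42.9. The order per length over the whole genes would not be known. The Tsc2 feature held 92.8% of the counts of the pair, a share that would be that of Pkd1 transcripts if the strands were read the other way. In the 579 tail-to-tail pairs with at least 100 counts the median share on the higher member was 85.6%, and 202 pairs, this one included, had a share at or above that of Tsc2. In single libraries the share on the Tsc2 feature ran from 85.8% in injury replicate 3 (Wilson 95% interval 78.0% to 91.2%) to 97.2% in sham replicate 2 (93.6% to 98.8%).

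The Tsc2 feature was at 57.3% of its sham level after injury, with a log2 fold change of -0.80 (SE 0.18). This is the difference on which Tsc2 was selected. In this comparison 16 of 3722 features were called (0.430%), that is, had an adjusted p under 0.05, but 154 were without sham replicate 1 and 3 without sham replicate 3 or injury replicate 2. Without injury replicate 1 or 3 there were 8 and 4. Injury and sham libraries lay fully apart in 15.7% of features. Pkd1 had a log2 fold change of 0.69 (SE 0.57) in the same comparison, which was 0.44 without injury replicate 3 and 0.86 without sham replicate 1.

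The comparison of CRC with sham asks how far the uterus that was injured and received cells differed on day 7 from one that had only the sham operation. The Tsc2 feature was at 72.4% of its sham level, with a log2 fold change of -0.47 (SE 0.18, 95% interval -0.83 to -0.10), and was lower in 3 of 3 CRC libraries than in any sham library. It did not pass the threshold (adjusted p = 0.0621, quasi-likelihood test of edgeR, adjusted over 3722 features by Benjamini-Hochberg). Without sham replicate 1, the lowest of the sham libraries for Tsc2, the log2 fold change was -0.56 and passed (adjusted p = 0.0265, edgeR), and over all alternatives the adjusted p ran from 0.0265 to 0.506. Scaled to all records of a library in place of the counts on features, the log2 fold change was -0.17, but the median of all features then moved to 0.32, and relative to that median Tsc2 stood at -0.49. The sham libraries also entered the choice of Tsc2, so neither p is independent of it, and no conclusion is drawn from either. In the same comparison 746 features were called (20.0%), 299 higher (8.03%) and 447 lower (12.0%) in CRC, against 643 higher and 281 lower with libraries scaled to all records, and the 2 groups lay fully apart in 35.5% of features.

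Pkd1 had a log2 fold change of 0.80 between CRC and sham (SE 0.56, 95% interval -0.34 to 1.95, adjusted p = 0.330, edgeR), with 2 of 3 CRC libraries above every sham library. Without CRC replicate 2 it was 0.33 (adjusted p = 0.802, edgeR), and over all alternatives it ran from 0.33 to 1.08 with adjusted p from 0.153 to 0.802.

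The comparison of CRC with injury asks what the cells changed in a uterus injured in the same way. The Tsc2 feature was higher in 3 of 3 CRC libraries than in any injury library, at 126% of the injury level, with a log2 fold change of 0.34 (SE 0.18, 95% interval -0.04 to 0.71). It did not pass the threshold (adjusted p = 0.262, edgeR), whereas 481 of 3722 features did (12.9%), and the 2 groups lay fully apart in 33.5%. With libraries scaled to all records the log2 fold change was 0.54 and passed (adjusted p = 0.0465, edgeR, in a range from 0.0465 to 0.693 over all alternatives), with the median of all features at 0.20 and Tsc2 at 0.33 relative to it. The injury libraries are those in which Tsc2 was chosen for its low count, which raises its difference from CRC. Neither p is therefore independent of the choice, and no conclusion is drawn from either. Pkd1 had a log2 fold change of 0.11 (SE 0.53, 95% interval -0.97 to 1.19, adjusted p = 0.927, edgeR), and its sign turned without injury replicate 1 (-0.05) or CRC replicate 2 (-0.38).

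The balance of the pair within a library does not depend on scaling. The log2 ratio of Tsc2 to Pkd1 counts, with 0.5 added to each, was 4.14, 4.99 and 4.57 for sham, 3.30, 3.45 and 2.56 for injury, and 3.67, 2.66 and 3.92 for CRC. Each sham library was above each library of the other groups, and injury and CRC overlapped. The mean was 4.57 ± 0.42 in sham, 3.10 ± 0.47 in injury and 3.42 ± 0.66 in CRC (SD, n = 3 each). Between CRC and sham the ratio differed by -1.15 (p = 0.1 by a two-sided exact permutation test, which with 3 against 3 libraries can go no lower), and between CRC and injury by 0.31 (exact p = 0.5). Both tests draw on sham or injury counts of Tsc2 that entered its choice and are not independent of it. Neither could have reached a p under 0.05 with so few libraries, so no conclusion is drawn from them. The difference of -1.46 between injury and sham is the contrast of the choice itself and was not tested. Without CRC replicate 2, which held 22 counts of Pkd1, the difference was -0.77 between CRC and sham and 0.69 between CRC and injury, and the latter was 0.04 without injury replicate 3, 0.06 without CRC replicate 3 and 0.19 without CRC replicate 1.

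Few counts lay on the partners of Tsc2 in the TSC complex, as on most genes of their kind. Of protein-coding genes with no opposite exon, such as Tsc1, Tbc1d7, Mtor, Rictor and Rheb, 58.4% had 0 counts and the median count was 0, and with the strand unknown a low count does not show that a gene is silent. Tsc1 held 4 counts in all 9 libraries together and Tbc1d7 held 24, and neither could be tested. The same held for the kinase complexes. Of 9 genes of the mTOR complexes none could be tested. Mtor, Rictor, Mapkap1 and Prr5 had 0 counts, Rptor had 4, and the most abundant, Mlst8, had 46. Rheb itself, the direct target of the TSC complex, had 6 counts.

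Over the 6 lists of the TSC and mTOR pathway, 14 of 73 genes could be tested and 20 had no count in any library. Between CRC and sham 1 of the 14 was called higher and 0 lower, where 8.03% and 12.0% of all features were, so the count is near that of features at large. Of the 14, which include the selected Tsc2, 4 had an unadjusted p under 0.05, Tsc2 among them, beside 32.1% of all features, and DESeq2 called 1. The median log2 fold change of the 14 was 0.30, beside 0.03 over all features tested. Between CRC and injury edgeR called 0 and DESeq2 called 0 of the 14, and 1 had an unadjusted p under 0.05, where edgeR called 12.9% of all features and 24.7% had such a p. The median of the 14 was 0.28, beside 0.01 over all features. Between injury and sham the median was -0.09, beside -0.01.

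The feature called was Rps6kb1, and the strand of the RNA counted on it is not known. The gene of that name encodes the S6 kinase that mTORC1 activates to promote translation. Counts of 48, 29 and 29 for sham, 58, 44 and 25 for injury, and 79, 80 and 65 for CRC were found, so all CRC libraries lay above all sham libraries. Between sham and CRC it rose by a log2 fold change of 0.89 (SE 0.29, adjusted p = 0.0285, edgeR), from 122 ± 29 to 228 ± 26.1 CPM (SD, n = 3 each). The call was lost without sham replicate 2 or 3 (adjusted p = 0.0641 and 0.116, edgeR) and without CRC replicate 1 or 2 (0.0885 and 0.0995). It was kept under the other 10 of 14 alternatives. In the same comparison the log2 fold change was 0.23 (SE 0.29, adjusted p = 0.632, edgeR) for Rnft1, whose exons lie across those of Rps6kb1. The related kinase gene Rps6kb2 had -0.34 (SE 0.23), and Srebf1, a regulator of lipid synthesis downstream of mTORC1, had 0.83 (SE 0.35, adjusted p = 0.0961, edgeR).

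Among the genes upstream of the TSC complex 4 of 20 could be tested, and Pik3ca and Pdpk1 were among the 6 with no count. The receptor gene Igf1r had a log2 fold change of 0.64 between CRC and sham (SE 0.40) and 0.83 between CRC and injury (SE 0.41), and Prkaa1, which encodes a catalytic subunit of the energy sensor AMPK, 0.50 (SE 0.37) and 0.53 (SE 0.38). The adaptor gene Irs1 had -0.59 (SE 0.58) between CRC and sham. Of the genes that bring mTORC1 to the lysosome 3 of 11 were tested, namely Rragd, Lamtor1 and Lamtor3, with -0.25, 1.29 and -0.24 in that comparison and SEs of 0.59, 0.64 and 0.58. In the amino acid branch 2 of 16 were tested. Nprl3, of the GATOR complex that restrains mTORC1, had 0.11 (SE 0.30), and Itfg2, of the KICSTOR complex, had 1.51 (SE 0.59, adjusted p = 0.0670, edgeR) with all CRC libraries above all sham libraries. Atg13, of the autophagy kinase complex that mTORC1 inhibits, had -0.59 (SE 0.41).

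**Figure D3:**
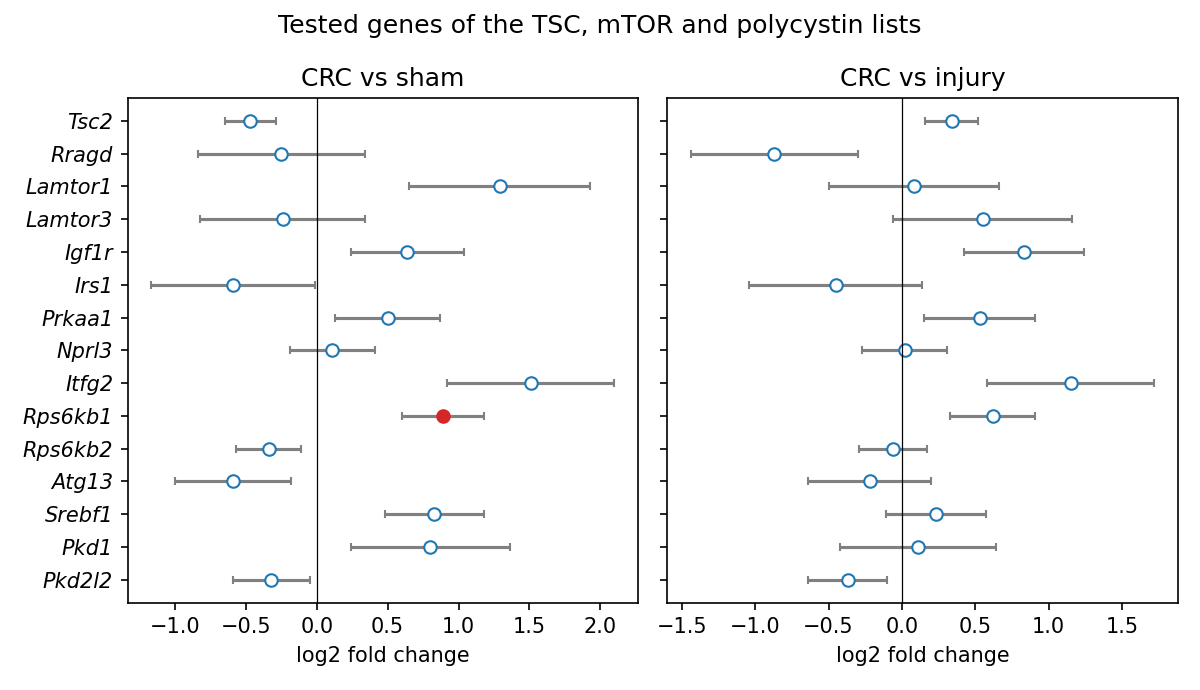
Log2 fold change with its SE (bars) for 15 tested genes of the TSC, mTOR and polycystin lists, between CRC and sham (left) and between CRC and injury (right), from 3 libraries per group, with 1 further tested gene not drawn. The filled red point, Rps6kb1 at 0.89, is the 1 value with an adjusted p under 0.05.

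Features across the other strand from these pathway genes were looked at in the same way as Pkd1 is across from Tsc2. There were 22, of which 10 could be tested. Between CRC and sham 1 of the 10 was called higher and 0 lower, again near the 8.03% and 12.0% of all features, with a median log2 fold change of 0.13. The feature called was Gm9920, across from Deptor, which encodes an inhibitor of mTOR and whose own feature held 3 counts. Which of the 2 genes gave the RNA was not tested. The sham libraries held 7, 12 and 0 counts of Gm9920, those of injury 4, 13 and 9, and those of CRC 43, 28 and 27. It rose by a log2 fold change of 2.15 over sham (SE 0.58, adjusted p = 0.00789, edgeR) and by 1.70 over injury (SE 0.55, adjusted p = 0.0382, edgeR). The first was 3.01 without sham replicate 2 and 1.55 without sham replicate 3, the library with 0 counts, and lost its call without CRC replicate 1 (adjusted p = 0.0531, edgeR). The second was lost without injury replicate 1 or 3 (0.205 and 0.112) and without CRC replicate 1, 2 or 3 (0.197, 0.0760 and 0.0779). Gm9747, across from Irs1, was the most abundant of the 22 with 18734 counts, where Irs1 held 88, and its log2 fold change was -0.05 between CRC and sham (SE 0.12) and 0.31 between CRC and injury (SE 0.12, adjusted p = 0.112, edgeR).

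The polycystins gave little more. Of the 8 genes of the family 2 could be tested, Pkd1 and Pkd2l2. Pkd2, the partner of Pkd1, held 16 counts, and Pkd1l1, Pkd1l2 and Pkd1l3 held 0. Pkd2l2 was the most abundant with 481 counts and had log2 fold changes of -0.32 between CRC and sham (SE 0.27) and -0.37 between CRC and injury (SE 0.27). EdgeR and DESeq2 called 0 of the 2 in either comparison, and 0 had an unadjusted p under 0.05, where edgeR called 20.0% and 12.9% of all features, so that 0 of 2 says little. None of the 12 other genes of polycystic disease reached the filter. Pkhd1, the gene of recessive polycystic kidney disease, had 0 counts, and the most abundant, Alg9, had 9.

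Within 100 kb of the pair the annotation has 27 genes, the pair included. Of these 25 were in the tables, 17 held counts and 5 could be tested. Nthl1, a DNA repair gene that starts 49 bases from the 5′ end of Tsc2 and is transcribed away from it, had 9, 1 and 2 counts for sham, 4, 0 and 0 for injury, and 13, 0 and 10 for CRC, too few for a test. Rab26, also not tested, stood at 32.6 ± 6.57 CPM in sham, 34.9 ± 21.2 in injury and 13.3 ± 3.56 in CRC (SD, n = 3 each). Noxo1, across from Tbl3 and not tested, stood at 29 ± 10.4 CPM in sham, 11.7 ± 1.93 in injury and 9.15 ± 5.26 in CRC (SD, n = 3 each). The others tested were Caskin1, Gfer and Tbl3. Tbl3 had log2 fold changes of 0.99 between injury and sham (SE 0.33) and -0.85 between CRC and injury (SE 0.32, adjusted p = 0.0803, edgeR), signs opposite to those of Tsc2. Gfer, a sulfhydryl oxidase gene, had 0.83 between CRC and sham (SE 0.49) and 1.09 between CRC and injury (SE 0.50), and Caskin1 had 0.39 and 0.29 (SE 0.49 each). In the comparisons of CRC with sham and with injury edgeR and DESeq2 called 0 of the 5, with 1 (Tsc2) and 2 (Gfer and Tbl3) at an unadjusted p under 0.05. Of all features edgeR called 20.0% and 12.9%, and 32.1% and 24.7% had an unadjusted p under 0.05, so a count over 5 genes does not set them apart. The miRNA gene Gm24589, inside an intron of Pkd1, had 0 counts.

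The features whose log2 CPM followed Tsc2 most closely over the 9 libraries were Tspan31 (Pearson r = 0.90), Syn3 (0.89), Eef2kmt (0.89), Slc43a1 (0.89) and Ptcd1 (0.88), with r as a description of 9 libraries that share the 3 groups. All but Slc43a1 have an exon across an exon of the other strand, in Cdk4, Timp3, Alg1 and Bud31 in that order, as do 61.2% of the 2268 protein-coding genes tested. Syn3 held 28565 counts and stood at 12762 ± 377 CPM in sham, 8686 ± 373 in injury and 10358 ± 1324 in CRC (SD, n = 3 each). Tspan31 stood at 129 ± 41.4, 63.0 ± 10.6 and 89.6 ± 14.9 CPM in sham, injury and CRC, and Slc43a1 at 155 ± 18.9, 73.5 ± 12.3 and 91.7 ± 9.59 (SD, n = 3 each). Those most like Pkd1 were Plxnc1 (0.88), Tmem126a (0.88), Gm7807 (0.86), Gm42898 (0.86) and Kif15 (0.86), none with an opposite exon. With Pkd1 at 5 to 22 counts per library these likenesses rest on few counts.

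Marker genes of the cell types of the uterus were read from the features that bear their names, under the same doubt about strand. Gm48529, across from the smooth muscle gene Tagln, held 130075 counts where Tagln held 159, and Hoxa11os held 6450 where the stromal gene Hoxa11 held 147. All 8 smooth muscle markers held counts, led by Myh11 with 459, and their sum was 399, 559 and 490 CPM for sham, 291, 334 and 316 for injury, and 241, 234 and 311 for CRC. This sum was lower in all injury than in all sham libraries, and its CRC values overlapped those of injury. Without Myh11 the other 7 markers summed to 178, 259 and 211 CPM for sham, 146, 176 and 193 for injury, and 140, 172 and 137 for CRC, so that injury overlapped sham and all CRC libraries lay below all sham libraries. Between CRC and sham 1 of the 3 tested was called, beside 12.0% of all features called lower. It was Myh11, with a log2 fold change of -1.24 (SE 0.30, adjusted p = 0.00299, edgeR), while Tagln had -1.13 (SE 0.42, adjusted p = 0.0528, edgeR) and Lmod1 0.13 (SE 0.44). Gm48529 had -1.28 (SE 0.10, adjusted p = 1.76e-10, edgeR). All 8 stromal markers held counts, led by Hoxa11 with 147, and summed to 149, 196 and 318 CPM for sham, 128, 165 and 133 for injury, and 128, 95.3 and 128 for CRC. Of 3 tested, 2 were called lower between CRC and sham, beside 12.0% of all features, Col1a1 at -2.74 (SE 0.66, adjusted p = 0.00323, edgeR) and Col3a1 at -1.93 (SE 0.60, adjusted p = 0.0219, edgeR), and the calls were lost without sham replicate 3 for Col1a1 (0.0561) and without sham replicate 2, CRC replicate 2 or CRC replicate 3 for Col3a1 (0.125, 0.0770 and 0.0731). Hoxa11 had -0.15 (SE 0.54) and Hoxa11os, across from it, -0.05 (SE 0.15, adjusted p = 0.869, edgeR), and Hoxa10, too low for a test, stood at 4.32 ± 7.49 CPM in sham and 20.4 ± 6.47 in CRC (SD, n = 3 each).

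Epithelium, the origin of the transplanted cells, could hardly be read. Of 8 epithelial markers 6 held counts, 49 in all and 27 of them on Muc1, and Cdh1 and Foxa2 were at 0. The sum was 42.2, 29.6 and 10.7 CPM for sham, 6.94, 17.6 and 14.0 for injury, and 18.3, 15.4 and 9.15 for CRC. Endothelial markers held 49 counts, led by Pecam1 with 26, with sums of 55.1, 0 and 25 CPM for sham, 13.9, 24.6 and 17.5 for injury, and 6.09, 18.4 and 3.05 for CRC. Of the 6 leukocyte markers Ptprc, Adgre1, Lyz2 and C1qa were at 0. Csf1r held 496 of their 498 counts, and the sum was 214, 233 and 282 CPM for sham, 219, 172 and 218 for injury, and 137, 111 and 107 for CRC. Csf1r was called lower between CRC and sham, with a log2 fold change of -1.04 (SE 0.26, adjusted p = 0.00431, edgeR). Exons of Hmgxb3, which held 14 counts and was not tested, lie across those of Csf1r. Whether the counts on Csf1r are RNA of leukocytes was not tested. The part of any cell type in the levels of Tsc2 was not tested.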

How the data were processed

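By the submitters' processing notes, reads of RNA depleted of ribosomal RNA were aligned with HISAT2 2.1.0 and assembled with StringTie 2.1.1. The authors deposited raw counts on 55228 features for each of 9 libraries, with 5 rows of records outside features (99.17% of records), which were left out. The files are named for HTSeq, and the version and strand setting of the counting are not given in the sources used here. Positions came from GENCODE M21 on GRCm38, while version 23, named by the study, was not used here.

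After filterByExpr and TMM scaling, all 9 libraries were fitted with the robust quasi-likelihood model of edgeR 4.0.16 in R 4.3.3, tested on simulated data first. An SE is the log2 fold change over the root of its F. DESeq2 1.42.0 was an alternative. Ratios were tested with scipy 1.17.1. The members and gene lists were chosen with earlier results of these data known. Genes named were the tested list members, genes within 100 kb with at least 10 counts in a library, opposite features, and the 5 features most like each gene by Pearson r on log2 CPM (prior count 2). List members at or near 0 were named after their values were seen. Some genes of the lists are not reported here by name.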

Additional observations from a re-analysis of the deposited data

How the results depend on the processing

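The log2 fold change of Tsc2 kept its sign in all 14 alternatives of each comparison, and so did that of Pkd1 in the 12 that could test it between injury and sham and between CRC and sham. Leaving out each replicate gave -0.905 to -0.745 for Tsc2 between injury and sham, -0.562 (without sham replicate 1) to -0.448 between CRC and sham, and 0.259 to 0.433 between CRC and injury. With all records as library size Tsc2 passed between CRC and injury (0.538), with the median of all features at 0.20. That test is not independent of the choice of Tsc2, and no conclusion is drawn from it. The calls between CRC and sham turned under this scaling from 299 higher and 447 lower to 643 higher and 281 lower. Pkd1 changed sign between CRC and injury without injury replicate 1 (-0.0548) and without CRC replicate 2 (-0.379), in a range up to 0.343. It could not be tested with at least 10 counts in every library, nor in fits of only the 2 groups between injury and sham and between CRC and sham. The difference in the log2 ratio of Tsc2 to Pkd1 kept its sign with 2 counts added and with each replicate left out, but between CRC and injury it then ran from 0.04 to 0.69.

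Features called between injury and sham numbered 16, but 154 without sham replicate 1 and as few as 3 without sham replicate 3 or injury replicate 2, 6 with only the 2 groups and 5 at an adjusted p under 0.01, which left 437 between CRC and sham and 289 between CRC and injury. The causes were not tested. Same-numbered replicates shared little of their deviation (r from -0.096 to 0.08). For injury replicates 1 and 2 the CRC library of the same number was the closest (0.038 and 0.08). This cannot exclude a shared batch, and the main fit used no pairing. With a replicate block 5 features were called between injury and sham, 682 between CRC and sham and 425 between CRC and injury. Of the other called genes, Gm9920 lost its call between CRC and injury in that block (adjusted p = 0.0554, edgeR), and Col3a1 its call between CRC and sham with no filter on low counts (0.0898, edgeR). Of the 5 features most like Tsc2, and of those most like Pkd1, 4 remained with a prior count of 0.5. All alternatives for the other called genes were chosen after seeing the data. At 5 to 22 counts per library, the few counts on the feature limit every statement on Pkd1.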
